A study of Mus musculus with 6 samples.

Results

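The calcineurin, NFAT and Rcan genes were followed in the heart ventricles of young mice labelled as lacking Hspa4 and of wild-type mice. Hspa4 is a cytosolic chaperone of the Hsp110 family. The 9 genes are Ppp3ca, Ppp3cb and Ppp3r1 for the subunits of calcineurin, Rcan1 and Rcan2 for its inhibitors, and Nfatc1, Nfatc2, Nfatc3 and Nfatc4 for the transcription factors it acts on. They were found by gene symbol, each had 1 probe set, and all 9 were among the 20239 genes tested. The samples were 3 arrays labelled Hspa4-/- and 3 labelled Hspa4+/+, each taken to be a separate male mouse of 3.5 weeks on the background strain 129/Sv, with ventricle RNA read on Affymetrix Mouse Gene 1.0 ST arrays. All mice were untreated as far as the labels say, and the labels do not say which part of Hspa4 was disrupted. Values are log2 expression, and differences are taken only between arrays of the same probe set, since probe sets differ in how brightly they bind. How high a gene reads is therefore only a rough guide to its level.

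Calcineurin is a phosphatase switched on by calcium and calmodulin. Its catalytic subunit, encoded by Ppp3ca or Ppp3cb in most tissues, works with the calcium-binding regulatory subunit encoded by Ppp3r1. It removes phosphates from NFAT proteins, which then enter the nucleus and act on genes together with factors such as GATA4 and AP-1, while kinases send NFAT back to the cytosol. In the heart this pathway is known for driving hypertrophy in response to load. RCAN proteins bind calcineurin and inhibit it, and a short Rcan1 transcript is itself switched on by NFAT, so Rcan1 RNA is often used as a readout of the pathway's activity.

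Rcan1 has a pair of RefSeq start sites that lie 66.1 kb apart, and the NFAT-responsive short transcript begins at the downstream site. Nfatc2, the member with the largest difference between the groups, also has a pair. The 300 bases around each (250 before the start and 50 after it) are shown so that a reader can see which letters lie at the starts that the gene-level values combine. They are from RefSeq, build GRCm38.p6, on the minus strand, 5′ to 3′, with the NFAT core GGAAA or its reverse complement TTTCC in capitals. The windows are at chr16:92466120-92466419 and chr16:92400029-92400328 for Rcan1, and at chr2:168601608-168601907 and chr2:168590316-168590615 for Nfatc2.
Rcan1 upstream start: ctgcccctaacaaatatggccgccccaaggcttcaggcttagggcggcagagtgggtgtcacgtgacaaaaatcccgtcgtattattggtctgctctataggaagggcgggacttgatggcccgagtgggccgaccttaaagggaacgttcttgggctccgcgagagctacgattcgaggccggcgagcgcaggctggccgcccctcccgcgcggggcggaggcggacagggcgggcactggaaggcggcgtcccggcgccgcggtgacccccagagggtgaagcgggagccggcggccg
Rcan1 downstream start: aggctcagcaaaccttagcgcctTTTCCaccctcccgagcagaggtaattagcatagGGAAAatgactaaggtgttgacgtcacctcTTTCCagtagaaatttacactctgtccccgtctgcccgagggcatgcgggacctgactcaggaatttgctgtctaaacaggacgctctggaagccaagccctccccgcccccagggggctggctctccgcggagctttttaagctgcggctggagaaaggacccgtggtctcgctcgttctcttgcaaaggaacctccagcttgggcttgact
Nfatc2 upstream start: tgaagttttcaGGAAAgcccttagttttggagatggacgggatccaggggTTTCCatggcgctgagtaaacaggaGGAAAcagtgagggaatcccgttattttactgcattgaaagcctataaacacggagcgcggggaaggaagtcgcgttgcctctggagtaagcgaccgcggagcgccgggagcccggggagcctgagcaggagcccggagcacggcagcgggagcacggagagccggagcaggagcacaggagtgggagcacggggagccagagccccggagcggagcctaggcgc
Nfatc2 downstream start: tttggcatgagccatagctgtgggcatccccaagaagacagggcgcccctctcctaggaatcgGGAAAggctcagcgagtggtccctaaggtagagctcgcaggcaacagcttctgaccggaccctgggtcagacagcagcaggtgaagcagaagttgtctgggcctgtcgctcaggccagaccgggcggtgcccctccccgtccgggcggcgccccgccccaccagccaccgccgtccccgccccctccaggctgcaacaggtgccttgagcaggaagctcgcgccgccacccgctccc

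The downstream Rcan1 window holds the core 3 times and the upstream window 0 times, counted on both strands. The downstream window also holds the AP-1 motif TGACTCA once, which 5.20% of the 32851 windows of this length in the RefSeq table contain. The Nfatc2 windows hold the core 3 times upstream and 1 time downstream. Of all windows 61.3% contain the core at least once and 9.42% contain it at least 3 times, so a match is common and is given only as a description of the letters. For 7 of the 9 genes the table gave 12 windows in all, and 7 of the 12 contained the core. The probe set gives 1 value for the whole gene, so transcripts from the different starts cannot be told apart in what follows.

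Hspa4 itself was at 9.33 in Hspa4-/- replicate 1, 6.63 in replicate 2 and 6.75 in replicate 3, against 9.74, 9.50 and 9.48 on the Hspa4+/+ arrays. The array labelled Hspa4-/- replicate 1 therefore has a wild-type level of Hspa4. The female-specific transcript Xist read 7.68 there, above 5.51 to 5.69 on the other 5 arrays, which conflicts with the male label. That array was kept in its labelled group. The difference of each member and of each pathway gene named for its test, and the counts over each gene list, are also given without it, as "5 arrays". The 12 cardiomyocyte markers read 8.05 or more on every array, which is a rough check of the tissue, as the table gives no measure of background.

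With all 6 arrays 0 of the 9 genes passed the test (limma, Benjamini-Hochberg over 20239 genes, threshold 0.05), and 0 of all genes did (0%). Their adjusted p ran from 0.284 to 0.966. At an unadjusted p under 0.05 stood 1 of the 9, Nfatc2, against 11.2% of all genes. On 5 arrays again 0 of the 9 passed, with adjusted p from 0.131 to 0.990, where 0.44% of all genes did, and at an unadjusted p under 0.05 stood 1 of the 9, against 14.9% of all genes. The 9 genes had a median log2 difference, Hspa4-/- minus Hspa4+/+, of 0.03 on 6 arrays and 0.02 on 5, while the median over all genes was −0.0094 and −0.02. In sign, 5 of the 9 were higher and 4 lower on 6 arrays, and 7 were higher and 2 lower on 5. As these are whole-ventricle samples, fewer cells of a type and less RNA per cell cannot be told apart.

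**Figure D1:**
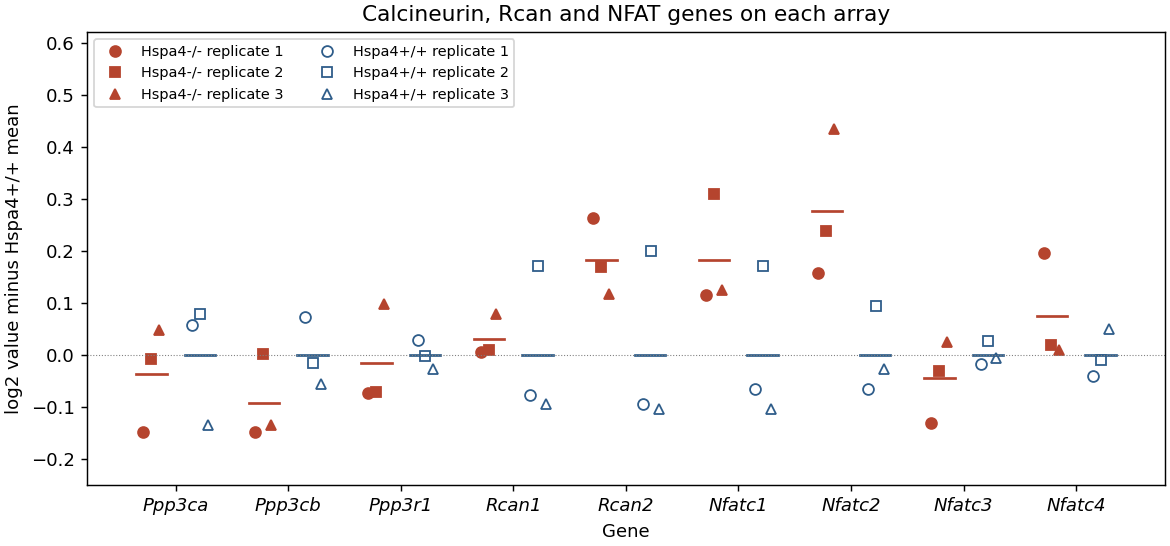
Log2 value of each gene on each array minus that gene's Hspa4+/+ mean (y axis), with filled red symbols for arrays labelled Hspa4-/-, open blue symbols for Hspa4+/+ arrays, and bars for group means (n = 3 each). Only in Nfatc2 do the 3 arrays labelled Hspa4-/- all lie above the 3 Hspa4+/+ arrays, and Hspa4+/+ replicate 2 is the highest Hspa4+/+ array in 6 of the 9 genes.

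The calcineurin subunits showed no called difference. Ppp3ca, the gene of the alpha catalytic subunit, read 8.49, 8.63 and 8.69 on the arrays labelled Hspa4-/-, in the order of replicates 1, 2 and 3 as throughout, and 8.70, 8.72 and 8.51 on the Hspa4+/+ arrays. The low array of each group, replicate 1 of Hspa4-/- and replicate 3 of Hspa4+/+, stood at nearly the same level, and the groups overlapped. The difference was −0.04 (SE 0.08; limma, adjusted p = 0.925) on 6 arrays and 0.02 on 5. With all arrays but Hspa4+/+ replicate 2 it was 0.0025, so its sign depended on which arrays were kept.

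Ppp3cb encodes the beta catalytic subunit, which mouse hearts need for a full hypertrophic response. It read 9.15, 9.30 and 9.16 on the arrays labelled Hspa4-/- and 9.37, 9.28 and 9.24 on the Hspa4+/+ arrays. In 2 of the 3 arrays labelled Hspa4-/- it lay below every Hspa4+/+ array, while replicate 2 lay within their range. The difference of −0.09 (SE 0.07, 95% interval −0.25 to 0.07) was the lowest of the 9 and did not pass (limma, adjusted p = 0.705). It was −0.07 on 5 arrays.

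Ppp3r1, the gene of the regulatory subunit, read 7.47, 7.47 and 7.64 on the arrays labelled Hspa4-/- and 7.57, 7.54 and 7.52 on the Hspa4+/+ arrays. The Hspa4+/+ values lay inside the range of the arrays labelled Hspa4-/-. The difference was −0.02 (SE 0.07; limma, adjusted p = 0.966) on 6 arrays and 0.01 on 5. As a fold, the 95% intervals on 6 arrays were 0.857 to 1.11 for Ppp3ca, 0.839 to 1.05 for Ppp3cb and 0.886 to 1.10 for Ppp3r1.

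Rcan1, the inhibitor whose short transcript NFAT switches on, read 9.31, 9.31 and 9.38 on the arrays labelled Hspa4-/-, against 9.22, 9.47 and 9.21 on the Hspa4+/+ arrays. All 3 arrays labelled Hspa4-/- fell between the Hspa4+/+ values, of which replicate 2 was high. It averaged 9.33 ± 0.04 on the arrays labelled Hspa4-/- and 9.30 ± 0.15 in Hspa4+/+ (SD, n = 3 each). The fold was 1.02 with a 95% interval of 0.898 to 1.16 (limma, adjusted p = 0.936), and 1.03 on 5 arrays with an interval of 0.889 to 1.19. Without Hspa4+/+ replicate 2 the log2 difference was 0.12 and still not called. It was −0.0076 without Hspa4+/+ replicate 1 and −0.016 without Hspa4+/+ replicate 3.

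Rcan2, the close relative of Rcan1 that inhibits calcineurin in the same way, read 9.44, 9.35 and 9.30 on the arrays labelled Hspa4-/-, against 9.09, 9.38 and 9.08 on the Hspa4+/+ arrays. Here too Hspa4+/+ replicate 2 stood high, and it alone made the groups overlap. The difference was 0.18 (SE 0.09, 95% interval −0.02 to 0.39; limma, adjusted p = 0.508) on 6 arrays and 0.14 on 5. It was 0.28 without Hspa4+/+ replicate 2 (limma, adjusted p = 0.133). Without Hspa4+/+ replicate 1 or Hspa4+/+ replicate 3 it was 0.13 (limma, adjusted p = 0.913 and 0.833). Unlike in Hspa4, the array labelled Hspa4-/- replicate 1 was the farthest of its group from the Hspa4+/+ mean, 0.26 above it.

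Nfatc2 had the largest difference of the 9 genes. Its product is known from T cells, and mice without it show a blunted hypertrophic response. It read 7.31, 7.39 and 7.59 on the arrays labelled Hspa4-/-, against 7.09, 7.25 and 7.13 on the Hspa4+/+ arrays. The groups did not overlap, but the lowest array labelled Hspa4-/- was only 0.06 above the highest Hspa4+/+ array. Without overlap stood 1 of the 9 genes on 6 arrays, against 15.1% of all genes (6.08% higher on the arrays labelled Hspa4-/- and 9.07% lower). On 5 arrays Nfatc2 was again the 1 of 9 without overlap, against 33.3% of all genes.

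The mean of Nfatc2 was 7.43 ± 0.14 on the arrays labelled Hspa4-/- and 7.16 ± 0.08 in Hspa4+/+ (SD, n = 3 each). That is a 1.21-fold difference with a 95% interval of 1.06 to 1.38, which did not pass over all genes (limma, adjusted p = 0.284). On 5 arrays it was 1.26-fold, with an interval of 1.10 to 1.45 (limma, adjusted p = 0.131). In absolute size the 6-array difference exceeded that of 95.4% of all genes. The 2 arrays on which Hspa4 was low stood highest, and the array labelled Hspa4-/- replicate 1 lay between them and the Hspa4+/+ arrays.

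Nfatc1, best known for its part in the endocardium and the forming heart valves, read 7.06, 7.25 and 7.07 on the arrays labelled Hspa4-/-, against 6.88, 7.11 and 6.84 on the Hspa4+/+ arrays. Hspa4-/- replicate 2 stood above every Hspa4+/+ array and the other arrays of its label lay just below Hspa4+/+ replicate 2. The difference was 0.18 (SE 0.09, 95% interval −0.02 to 0.39; limma, adjusted p = 0.502) on 6 arrays and 0.22 on 5 (limma, adjusted p = 0.362).

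Nfatc3, whose loss in mice also lessens hypertrophy, read 7.75, 7.85 and 7.91 on the arrays labelled Hspa4-/- and 7.87, 7.91 and 7.88 on the Hspa4+/+ arrays. The Hspa4+/+ arrays lay within 0.04 of each other, and only the array labelled Hspa4-/- replicate 1 stood clearly apart, below them. The difference was −0.05 (SE 0.07; limma, adjusted p = 0.870) on 6 arrays and −0.0030 on 5.

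Nfatc4, the NFAT protein first described as a partner of GATA4 in heart muscle, read 6.41, 6.23 and 6.22 on the arrays labelled Hspa4-/- and 6.17, 6.20 and 6.26 on the Hspa4+/+ arrays. Again the array labelled Hspa4-/- replicate 1 was set apart, this time above the rest, and the other arrays of its label lay among the Hspa4+/+ values. The difference of 0.07 (SE 0.07; limma, adjusted p = 0.780) on 6 arrays was 0.01 on 5.

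**Figure D2:**
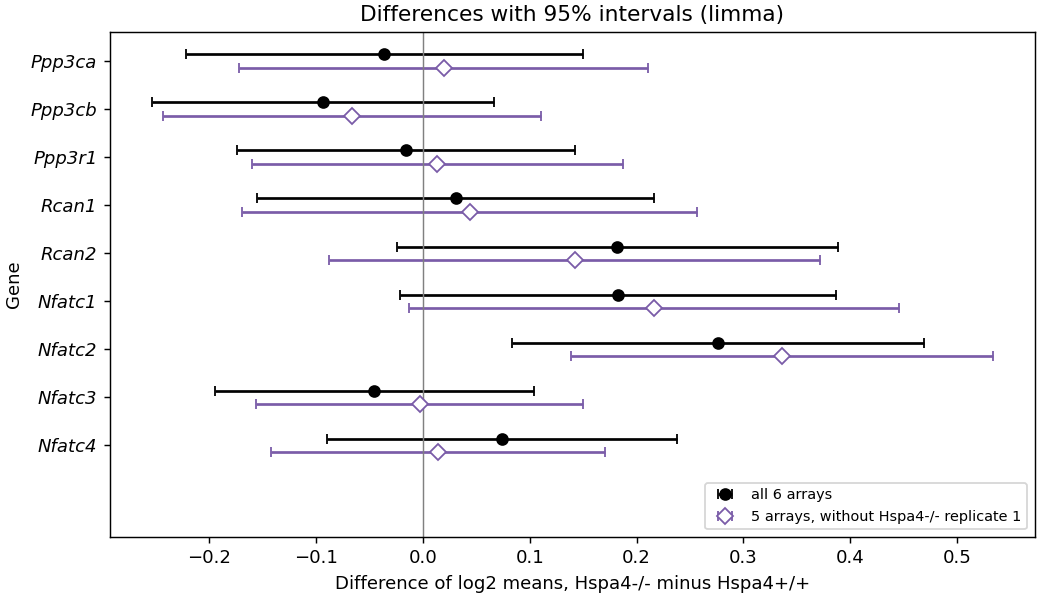
Difference of log2 means for each gene (x axis, Hspa4-/- minus Hspa4+/+) with limma's 95% interval, for all 6 arrays (black circles) and for the 5 arrays without the array labelled Hspa4-/- replicate 1 (open purple diamonds). The Nfatc2 intervals lie above 0 in both, before adjustment over all genes, and the intervals of the other 8 genes include 0.

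Across the 9 genes, the 95% intervals on 6 arrays ran from 0.839-fold to 1.38-fold. The SE of the members lay between 0.07 and 0.09, near the median SE of 0.08 over all genes. The interval of Nfatc2 lay above no change before adjustment, and those of the other 8 genes included it.

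The range over the arrays labelled Hspa4-/- was narrower than over the Hspa4+/+ arrays in 4 of the 9 genes (Rcan1, Rcan2, Nfatc1 and, by little, Ppp3ca) and wider in 5, and the difference in spread was not tested. Hspa4+/+ replicate 2 was the highest of the Hspa4+/+ arrays in 6 of the 9 genes and the lowest in 0, while Hspa4+/+ replicate 3 was the lowest in 6. The range over the arrays labelled Hspa4-/- was 0.07 in Rcan1, 0.15 in Rcan2 and 0.19 in Nfatc1, against 0.27, 0.30 and 0.27 in Hspa4+/+. It was 0.15 in Nfatc3 and 0.17 in Ppp3r1, against 0.04 and 0.06 in Hspa4+/+. With Hspa4+/+ replicate 2 left out, the difference was 0.27 in Nfatc1 (limma, adjusted p = 0.184) and 0.32 in Nfatc2 (limma, adjusted p = 0.152), so neither was called. With Hspa4+/+ replicate 1 left out it was 0.15 in Nfatc1 and 0.24 in Nfatc2. With Hspa4+/+ replicate 3 left out it was 0.13 and 0.26.

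The array labelled Hspa4-/- replicate 1 lay above all Hspa4+/+ arrays in 3 of the 9 genes, below all of them in 4 and within their range in 2. Hspa4-/- replicates 2 and 3 lay within that range in 5 and 6 genes. The difference between these counts was not tested.

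Between the members, values over the 6 arrays ran most alike in Rcan2 and Nfatc1 (Pearson r = 0.82), Rcan1 and Rcan2 (r = 0.71) and Ppp3ca and Nfatc3 (r = 0.70). Most opposite to each other were Nfatc3 and Nfatc4 (r = −0.86), Ppp3ca and Nfatc4 (r = −0.83) and Ppp3cb and Nfatc4 (r = −0.72), and the array labelled Hspa4-/- replicate 1 was the highest in Nfatc4 and the lowest in the other 3 genes. These are descriptions over 6 arrays that share their normalisation and include both genotypes. Among the 20230 other genes, Lyrm1 (r = 0.992), Lats2 (r = 0.991), Dip2a (r = 0.990), Fnip2 (r = 0.986) and Lrrc14b (r = 0.986) followed Rcan1 most closely, and Hspa4+/+ replicate 2 was the highest array in each. Closest to Nfatc2 were Dnm2 (r = 0.998), Acvr1b (r = 0.996), St3gal3 (r = 0.996), Vars (r = 0.996) and Vav2 (r = 0.995), with Hspa4-/- replicate 3 the highest array in each. They were picked as the highest of 20230 correlations with each gene.

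The array SDs over all genes were 1.20, 1.25 and 1.27 for Hspa4-/- replicates 1, 2 and 3, against 1.23, 1.25 and 1.19 for Hspa4+/+ replicates 1, 2 and 3. In each group the array with the widest spread was also the one on which Nfatc2 read highest. With quantile normalisation, which gives every array the same distribution, the Nfatc2 difference was 0.24 in place of 0.28, and Nfatc1 was 0.16.

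Nfatc1 is an endothelial and endocardial gene as well, so markers of those cells stand beside it. Of 10 such markers 8 were higher and 2 lower on the arrays labelled Hspa4-/-, with a median difference of 0.13 and a summed linear level of 4735 to 5388 on them, against 4591 to 4798 in Hspa4+/+. None passed (limma, smallest adjusted p = 0.210), and 3 of the 10 were higher at an unadjusted p under 0.05, against 5.64% of all genes. On 5 arrays again 8 were higher and 2 lower, and none passed (limma, smallest adjusted p = 0.118). At an unadjusted p under 0.05, 4 of the 10 were then higher, where 1730 of all 20239 genes were. Their part in the Nfatc1 and Nfatc2 values was not tested.

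Lymphocyte markers are listed because Nfatc2 is high in T cells, and most read low, with 2 of 10 above the median gene by mean value. Of 10 measured, 2 were higher and 8 lower. Their median was −0.05, where the median absolute difference over all genes was 0.07. Summed levels were 619.3 to 668.1 on the arrays labelled Hspa4-/-, against 632.2 to 713.5 in Hspa4+/+. Cd3e, part of the T-cell receptor complex, read 6.81, 6.53 and 6.36 on the arrays labelled Hspa4-/- and 6.57, 6.45 and 6.66 in Hspa4+/+. It was among the 2 that were higher, by 0.01, but its difference on 5 arrays was −0.11. Cd3d, Cd3g, Cd4 and Cd8a were lower on 6 arrays, with differences of −0.03, −0.04, −0.11 and −0.06. Of 9 macrophage markers 8 were lower, with a median of −0.09 and summed levels of 1376 to 1428 on the arrays labelled Hspa4-/-, against 1542 to 1614 in Hspa4+/+. Cardiomyocyte markers were higher in 11 of 12, with a median of 0.18, and summed to 57767 to 60367 on the arrays labelled Hspa4-/-, against 53752 to 56970 in Hspa4+/+. On 5 arrays 0 of the 10 lymphocyte markers were higher and 10 lower, and 2 of the 9 macrophage markers were higher and 7 lower. Of the 12 cardiomyocyte markers 11 were higher. Higher and lower were also 0 and 5 for neuron and Schwann cell markers, 0 and 3 for erythroid and 2 and 5 for skeletal muscle. They were 6 and 2 for fibroblast and for smooth muscle and pericyte markers, and 4 and 3 for atrial and conduction markers. Of all 20239 genes 8770 were higher and 11469 lower. The other 6 lists of cell markers had medians between −0.10 and 0.06 on 6 arrays and between −0.06 and 0.14 on 5. None of the genes on any marker list passed on 6 or on 5 arrays (limma). At an unadjusted p under 0.05 on 6 arrays, 6 of the 12 cardiomyocyte markers were higher and 4 of the 9 macrophage markers lower. Of all genes 5.64% were higher and 5.53% lower at that level. On 5 arrays these 2 lists had the same counts, where 1730 of all 20239 genes were higher and 1288 lower (14.9% in either direction). No list had larger counts. The part of any of these in the members' values was not tested.

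The wider pathway was read from 7 lists with 76 measured genes beside the 9. With all 6 arrays 0 of the 76 passed (limma), with 13 higher and 4 lower at an unadjusted p under 0.05, against 5.64% of all genes higher and 5.53% lower. Their median difference was 0.03, against −0.0094 over all genes. Without overlap stood 13 of the 76 higher and 5 lower, against 6.08% and 9.07% of all genes. On 5 arrays 2 of the 76 rose, where 0.232% of all genes did, and 0 fell, where 0.208% of all genes did. With Hspa4+/+ replicate 2 also left out, 8 of the 76 passed, where 875 of all genes did. With Hspa4+/+ replicate 1 or 3 left out instead, 0 of the 76 passed, where 6 and 2 of all genes did.

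Among the close relatives of the members, 1 of 4 was higher and 3 lower, on 6 arrays and on 5. Ppp3cc, the remaining catalytic subunit gene of calcineurin, read 8.64, 8.63 and 8.73 on the arrays labelled Hspa4-/-, against 8.81, 8.86 and 8.79 in Hspa4+/+. The groups did not overlap, and the difference was −0.16 (SE 0.06; limma, adjusted p = 0.411) on 6 arrays and −0.14 on 5. All 3 catalytic subunit genes thus had a negative difference on 6 arrays, none of them called, and Ppp3ca turned positive on 5. Rcan3 differed by 0.12 and Nfat5, which lacks the calcineurin docking site and answers to osmotic stress, by −0.09, neither called. On 5 arrays they differed by 0.13 and −0.06.

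Calmodulin genes carry the calcium signal to calcineurin. Calm2 differed by −0.14 (limma, adjusted p = 0.561), Calm3 by 0.04 and the calmodulin-like Calml3 by −0.03, and 0 of 4 passed. On 5 arrays these differences were −0.16, 0.11 and −0.02, and 1 of the 4 was higher and 3 lower, against 2 and 2 on 6 arrays. Among 12 genes of calcium entry and release 8 were higher and 4 lower on 6 arrays, with a median of 0.03. On 5 arrays the balance turned to 5 higher and 7 lower, with a median of −0.0072. Cacna1c, the pore of the L-type calcium channel, read 10.46, 10.43 and 10.43 on the arrays labelled Hspa4-/-, against 10.13, 10.23 and 10.17 in Hspa4+/+. Its groups did not overlap, with a difference of 0.27 (SE 0.06; limma, adjusted p = 0.221) on 6 arrays and 0.26 on 5. Of the store-operated entry genes, Orai1 differed by 0.15 and Stim1 by 0.16 on 6 arrays, and by 0.17 and 0.13 on 5, also not called.

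Of 15 anchors and partners of calcineurin 10 were higher and 5 lower, with a median of 0.05, and on 5 arrays 11 were higher and 4 lower. Cabin1, which binds calcineurin and represses its signalling, read 7.72, 7.62 and 7.85 on the arrays labelled Hspa4-/-, against 7.24, 7.42 and 7.34 in Hspa4+/+. This was 0.39 (SE 0.08; limma, adjusted p = 0.210) on 6 arrays and 0.40 (limma, adjusted p = 0.0986) on 5, with no overlap in either. Fhl2, a LIM protein that dampens calcineurin signalling in heart muscle, differed by 0.20 and Akap1, an anchor at the mitochondrial surface, by 0.18, and neither was called. On 5 arrays they differed by 0.28 and 0.14.

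Kinases that return NFAT to the cytosol had a median difference of 0.08 over 15 genes, with 10 higher and 5 lower, and of 0.12 on 5 arrays, with 12 higher and 3 lower. Mapk12, the gene of p38 gamma, read 7.83, 7.98 and 8.06 on the arrays labelled Hspa4-/-, against 7.57, 7.75 and 7.59 in Hspa4+/+. It differed by 0.32 (SE 0.08; limma, adjusted p = 0.235), and Csnk1e, the gene of casein kinase 1 epsilon, by 0.30 (SE 0.08; limma, adjusted p = 0.245). Mapk9, the gene of JNK2, went the other way at −0.18 (limma, adjusted p = 0.409). In all 3 the groups did not overlap. Of the 15 kinases, 2 stood higher and 1 lower without overlap, against 6.08% and 9.07% of all genes. On 5 arrays the differences were 0.38 in Mapk12 and 0.37 in Csnk1e (limma, adjusted p = 0.0780 in both), and −0.11 in Mapk9.

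Nuclear partners of NFAT were split, with 6 of 13 higher and 7 lower on 6 arrays, and 7 higher and 6 lower on 5. Jund, a subunit of AP-1, read 7.80, 7.89 and 7.87 on the arrays labelled Hspa4-/-, against 7.26, 7.68 and 7.31 in Hspa4+/+, and Gata4 differed by 0.28 (SE 0.09; limma, adjusted p = 0.287). The Jund difference was 0.44 (SE 0.10; limma, adjusted p = 0.227), and Hspa4+/+ replicate 2 stood high in it, as in Rcan1 and Rcan2. Without that array Jund rose by 0.56 (limma, adjusted p = 0.0370), in a setting where 112 of all genes passed. Leaving out the highest Hspa4+/+ array can only raise such a difference. Jund passed with no other single array left out. Mef2a, another hypertrophy factor, differed by −0.20 (SE 0.06; limma, adjusted p = 0.292). On 5 arrays the difference was 0.46 in Jund, 0.30 in Gata4 and −0.21 in Mef2a, none of them called.

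Among genes reported to respond to calcineurin and NFAT in heart muscle, the natriuretic peptide and fetal sarcomere genes lay farther out than the rest of their list. Nppb, the gene of brain natriuretic peptide, read 7.22, 7.40 and 7.62 on the arrays labelled Hspa4-/-, against 6.98, 6.99 and 6.76 in Hspa4+/+. Nppa read 9.43, 10.52 and 11.49 on the arrays labelled Hspa4-/-, against 8.62, 8.94 and 8.50 in Hspa4+/+. The beta-myosin gene Myh7 read 8.25, 8.45 and 8.76 on the arrays labelled Hspa4-/-, against 7.92, 8.10 and 7.70 in Hspa4+/+. All 3 were without overlap on 6 arrays, where 6.08% of all genes were higher without overlap. They were the only such genes of the list's 14, of which 0 passed. On 5 arrays Nppa and Acta1 (named after its values were seen) were the 2 that rose, by 2.32 (limma, adjusted p = 0.0127) and 1.32 (limma, adjusted p = 0.0310). Nppb differed by 0.60 (limma, adjusted p = 0.0520) and Myh7 by 0.70 (limma, adjusted p = 0.0623) on 5 arrays.

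Rcan1, also an NFAT-responsive gene, had a difference of 0.03 on 6 arrays, beside 0.50 in Nppb, 0.58 in Myh7 and 1.80 in Nppa. Of the 14 genes of that list, 10 lay between −0.06 and 0.21. Among them were Edn1, the endothelin 1 gene, at 0.0022 and Ptgs2, the cyclooxygenase 2 gene, at −0.06 (both named after their values were seen). Some of the 10 read low, such as Il6 with a mean of 5.19 and Ptgs2 with 5.86, where array medians were 6.43 to 6.48. In such genes a change may not show. The list's median was 0.04 on 6 arrays, with 10 of 14 higher and 4 lower, and 0.02 on 5, with 8 higher and 6 lower.

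**Figure D3:**
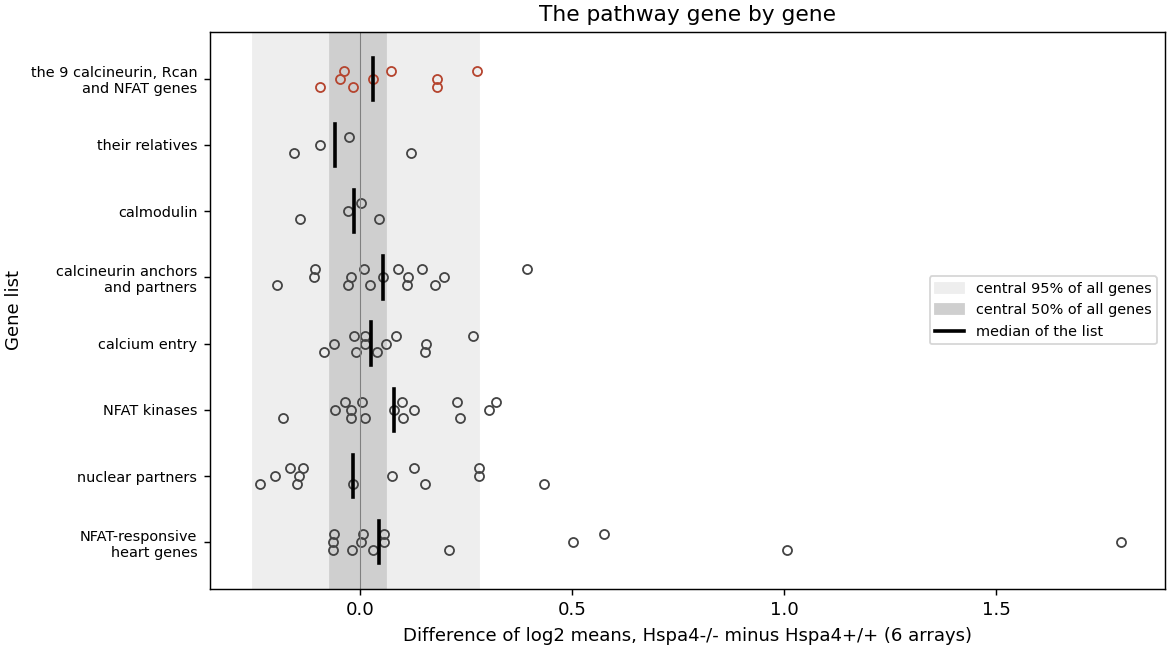
Difference of log2 means (x axis, Hspa4-/- minus Hspa4+/+, 6 arrays) of each gene of the pathway by list, with the median of each list as a black bar and the central 95% and 50% of all genes shaded. The 9 members lie between −0.09 and 0.28, and the points far to the right are Nppb, Myh7, Acta1 and Nppa.

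Across the 20 alternative settings (19 for Nfatc4), Rcan2, Nfatc1 and Nfatc2 kept a positive difference in every one. The sign of the other 6 members turned in at least 1. Leaving out low genes, eBayes with trend and robust, and the replicate block return the same difference by design, so they could not turn a sign. None of the 9 was called in any setting. The smallest adjusted p was 0.0509, for Nfatc2, with both the array labelled Hspa4-/- replicate 1 and Hspa4+/+ replicate 2 left out (limma).

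**Figure D4:**
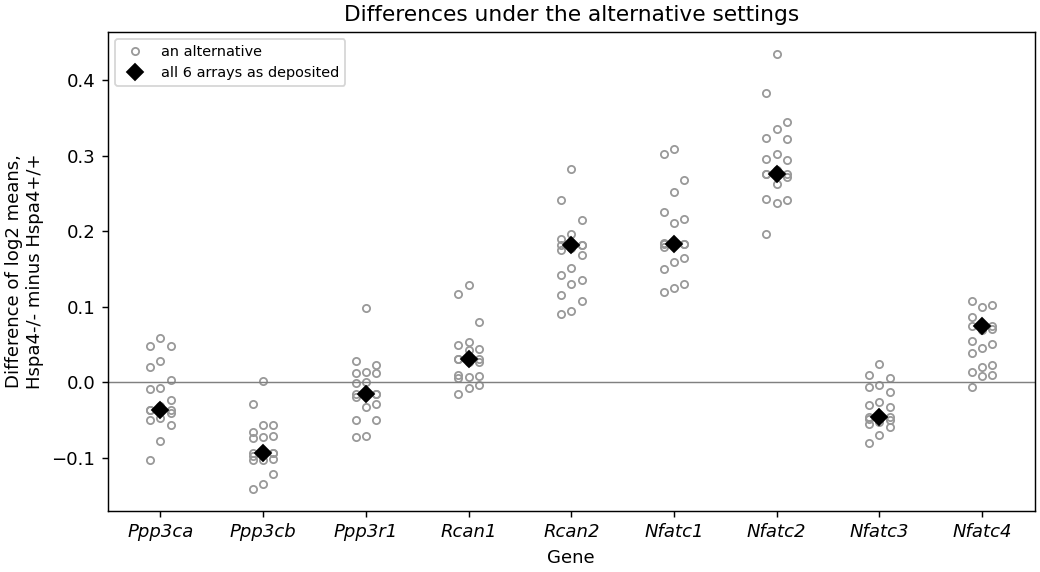
Difference of log2 means (y axis, Hspa4-/- minus Hspa4+/+) of each gene with all 6 arrays as deposited (black diamonds) and under each alternative setting (grey circles), such as another normalisation or arrays left out. Nfatc2 ran from 0.20 to 0.43, Nfatc1 from 0.12 to 0.31 and Rcan2 from 0.0899 to 0.28, while Rcan1 ran from −0.02 to 0.13.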

How the data were processed

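The deposited table gives log2 expression values, 1 for each of 21225 probe sets on each of 6 arrays. Per the submitters' processing notes the authors used R 2.13.0 and the affy package. Which background correction, normalisation and summary they chose is not stated there. The values were kept as deposited. Probe sets were named through the array's probe annotation: 20239 had 1 symbol, 0 had several and 986 had none, and all 20239 gene numbers matched a RefSeq table (GRCm38.p6) under the same symbol. The number of arrays limits the precision.

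Groups came from the labels. A 2-group model was fitted over 20239 genes in limma 3.58.1 (R 4.3.3; lmFit and eBayes, no filter), with Benjamini-Hochberg adjustment and a threshold of 0.05, and was tested on simulated data. The 9 members and the gene lists (7 of the pathway, 10 of cell type markers) come from general knowledge and were chosen with earlier results of these data known. Of each pathway list the 3 genes with the smallest unadjusted p are named, and for Rcan1 and Nfatc2 the 5 genes with the highest Pearson correlation. The labels number the replicates 1 to 3 in both groups, but same-numbered arrays did not deviate from their group means together (r = −0.17, 0.09 and −0.25), so the numbers were not taken as pairs. List genes without a probe set of that symbol were not analysed here.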

Additional observations from a re-analysis of the deposited data

How the results depend on the processing

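None of the 9 members was called in any of the 20 alternatives (limma). For them only settings that change the values, weights or arrays bear on size and sign. Leaving out low genes, eBayes with trend and robust, and the replicate block leave the differences unchanged. The replicate block gave 2 genes past the threshold over all genes and 0 members. Over all genes the count was 0 as reported, 2 with the lowest 25% or 50% of genes left out (fewer genes tested, and Nfatc4 among those removed by the second), and 115 with array weights. Without Hspa4-/- replicate 1 it was 89, or 94 with quantile normalisation and 36 with array medians subtracted as well. Leaving out arrays, singly or with Hspa4-/- replicate 1, gave counts from 0 to 875, the highest without Hspa4-/- replicate 1 and Hspa4+/+ replicate 2. Of the pathway genes, 2 passed with array weights, 2 without Hspa4-/- replicate 1 under quantile normalisation and 1 with medians subtracted, and from 0 to 8 with arrays left out. Of the marker genes, from 0 to 6 passed with arrays left out. The 8 pathway genes and the 6 marker genes passed in the setting where 875 of all genes did. Hspa4 differed by −2.54 with array weights, by −2.91 and −2.88 without Hspa4-/- replicate 1 under quantile normalisation and subtracted medians, and by −2.95 to −1.54 with arrays left out. It passed in each setting that left out Hspa4-/- replicate 1 and with array weights.

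Signs turned among members with small differences. With arrays left out, Rcan1 ran from −0.016 to 0.13, Ppp3ca from −0.10 to 0.058, Ppp3cb from −0.14 to 0.0023, Ppp3r1 from −0.073 to 0.098, Nfatc3 from −0.080 to 0.024 and Nfatc4 from −0.0060 to 0.11. Without Hspa4-/- replicate 1 and with medians subtracted, Ppp3ca was 0.029, Ppp3r1 0.023 and Nfatc3 0.0060. Where fewer samples do not account for a shift, the cause was not tested. Some settings leave 1 array labelled Hspa4-/-, which is then assumed to vary like the Hspa4+/+ arrays. The number of arrays limits the precision, and signal over background is unknown.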
